A study of Mus musculus with 12 samples.

Results

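The genes described here encode the proteins of the mitochondrial ribosome, taken as every mouse gene on the array whose symbol begins with Mrpl or Mrps followed by a digit. The scanner files held 114 probes for 78 such genes, among 32678 genes and unnamed probes in all, and the brightest probe of each gene was followed. By the subunit in which each protein is known to sit, 51 belonged to the large subunit (Mrps18a and Mrps30 among them, whatever their symbols say), 26 to the small subunit, and 1, Mrps36, is a component of the alpha-ketoglutarate dehydrogenase complex despite its name. RNA was measured in NIH3T3 cells, an established line of mouse embryonic fibroblasts, after 18 h in DMSO (the vehicle control), in 50 nM rapamycin or in 2 µM PP242, with 4 arrays per group that the study's design text describes as independent experiments. One text field of the labels gives the PP242 dose in mM and the others in µM. No genetic change was made in any group. The RNA came from whole cultures, so fewer cells of a kind and less RNA per cell cannot be told apart.

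Mitochondrial ribosomes translate the few messages of mitochondrial DNA, which code for core subunits of the respiratory chain and ATP synthase. Their proteins are all encoded in the nucleus, made on cytosolic ribosomes and imported; some descend from bacterial ribosomal proteins and others were gained by mitochondria. Rapamycin binds FKBP12 and inhibits part of the output of mTOR complex 1, whereas PP242 competes with ATP at the kinase domain of mTOR and so inhibits both of its complexes. mTOR is a known regulator of mitochondrial biogenesis in proliferating cells.

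Each level below is the log2 processed signal of a probe minus the 75th percentile of its array, so a level of 1 is a doubling over that percentile. Levels are compared between arrays for the same gene only. On 4 arrays (DMSO 2, rapamycin 3, PP242 1 and PP242 4) dim probes were raised: 78% to 97.9% of probes were well above background there, against 55.8% to 60.5% on the 8 others, and the ratio of the 75th to the 25th percentile of signal was 7.12 to 51.1 against 261 to 420. Tests were therefore made on the 8 arrays (3 DMSO, 3 rapamycin, 2 PP242). They are given beside the same fit on all 12, except for the neighbouring genes described last. A gene is "called" where the adjusted p of limma's moderated test, corrected over all genes tested, was under 0.05, and ± is the standard error of the fit. All 78 genes passed the filter on dim probes, 77 of them with a signal well above background on every one of the 8 arrays and 77 with a mean level above the 75th percentile. Of 12 fibroblast genes, 11 stood clear of background on each of the 8 and Thy1 on 7, with Col1a1 between 5.71 and 6.17, whereas the epithelial genes Epcam and Cdh1, the endothelial genes Pecam1 and Cdh5 and the hepatocyte gene Alb were well above background on 0 of the 8.

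The promoters of several family members are shown first, because sequences bound by NRF1, GABP and YY1, nuclear regulators of mitochondrial genes, lie at the starts of many of them. The windows, from RefSeq on build GRCm38.p6, run 250 bases before to 50 after a gene's start and were found for 69 of the 78 genes. Searched on both strands, the NRF1 core CGCATGCG was in the windows of 7 of 69 members and of 2.1% of all 27025 genes with a window. The ETS motif CCGGAAGT, bound by GABP, was in those of 12 members against 4.3% of all genes, and the YY1 motif AAGATGGC in those of 12 members against 3.2%. The E-box CACGTG, bound by MYC among others, was in those of 5 members against 8.1%. Among the 17 windows of genes lower with PP242 (below), the NRF1 core was in 1, the ETS motif in 3, the YY1 motif in 3 and the E-box in 1, and among 50 windows of genes that were not called these numbers were 6, 9, 9 and 4. A match describes letters and not binding.

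The upstream 250 bases of 5 genes lower with PP242 follow, 5′ to 3′ on the strand of the gene, with any of these motifs in capitals: Mrpl22 (chr11:58171414-58171663, plus strand) holds the NRF1 core 32 bases before its start, Mrps22 (chr9:98601680-98601929, minus strand) and Mrps26 (chr2:130563507-130563756, plus strand) hold the ETS motif 11 and 15 bases before theirs, Mrpl20 (chr4:155802628-155802877, plus strand) holds an E-box 33 bases before its start, and Mrpl12 (chr11:120484387-120484636, plus strand) has no match. They were picked after the values were seen.
Mrpl22: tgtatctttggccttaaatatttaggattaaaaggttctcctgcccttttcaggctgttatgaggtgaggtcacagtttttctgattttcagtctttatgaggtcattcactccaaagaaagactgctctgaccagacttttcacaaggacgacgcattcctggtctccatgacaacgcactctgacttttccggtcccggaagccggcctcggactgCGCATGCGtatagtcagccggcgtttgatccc
Mrps22: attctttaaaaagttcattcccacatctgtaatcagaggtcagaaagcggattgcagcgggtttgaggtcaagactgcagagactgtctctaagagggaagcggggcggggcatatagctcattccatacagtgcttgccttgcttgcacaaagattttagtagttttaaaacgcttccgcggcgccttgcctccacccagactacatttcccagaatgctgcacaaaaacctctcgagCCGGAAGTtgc
Mrps26: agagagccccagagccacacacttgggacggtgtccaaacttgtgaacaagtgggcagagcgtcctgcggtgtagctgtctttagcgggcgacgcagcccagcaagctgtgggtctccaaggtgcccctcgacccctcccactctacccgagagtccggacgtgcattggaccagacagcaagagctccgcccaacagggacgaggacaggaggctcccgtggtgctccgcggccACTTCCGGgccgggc
Mrpl20: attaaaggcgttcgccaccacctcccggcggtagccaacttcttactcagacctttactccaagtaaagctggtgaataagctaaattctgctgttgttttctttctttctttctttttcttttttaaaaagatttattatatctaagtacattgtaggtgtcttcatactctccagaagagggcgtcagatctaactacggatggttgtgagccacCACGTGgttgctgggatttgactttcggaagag
Mrpl12: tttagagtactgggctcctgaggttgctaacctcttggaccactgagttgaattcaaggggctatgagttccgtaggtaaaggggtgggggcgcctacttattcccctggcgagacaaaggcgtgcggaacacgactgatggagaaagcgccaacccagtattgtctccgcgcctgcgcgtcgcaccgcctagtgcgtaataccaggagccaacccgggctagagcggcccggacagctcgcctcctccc

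A pair of family members is transcribed head to head: Mrpl46, on the minus strand, and Mrps11, on the plus strand, start 42 bases apart on chromosome 7. The stretch from one start to the other (chr7:78783089-78783131, written on the plus strand, GRCm38.p6) has none of the 4 motifs. A YY1 motif lies 107 bases before the start of Mrps11. That places it past the start of Mrpl46, on the transcribed side of that gene and outside its window. The YY1 motif also stands 18 bases after the start of Mrps7 and 16 after that of Mrpl49.
Mrpl46 to Mrps11: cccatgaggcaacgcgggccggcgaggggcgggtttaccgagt

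With PP242, 20 of the 78 genes were lower than with DMSO and 2 were higher. The largest falls were those of Mrpl16, Mrpl18, Mrps6, Mrps11, Mrpl20 and Mrpl12, between 0.75 and 0.85 on the log2 scale, a 1.68-fold to 1.80-fold lower level. Mrpl24 and Mrpl23 rose by 0.51 and 0.44. Over all genes tested by limma on these 8 arrays 26.2% were called, 13.3% as lower and 12.9% as higher, so the members' share called in either direction was near that of all genes and their split between directions was not. Among the 8397 genes whose mean level was above the 75th percentile, 1713 were called as lower and 1045 as higher. The family's median difference was -0.26 (quartiles -0.37 and -0.10), against -0.01 for all 19618 genes tested and -0.06 for these bright ones. In all, 63 of the 78 (80.8%) lay below 0, against 51.0% of all genes. In 50 members (64.1%) every PP242 array lay under every DMSO array, as it did for 29.3% of all genes and 39.5% of the bright ones, and in 6 members every PP242 array lay above, against 29.7% of all genes. On all 12 arrays none of the 78 was called by limma, where 0.449% of all genes were. At an unadjusted p under 0.05 there were 2 members on 12 arrays, where 9.68% of all genes passed, and 43 (55.1%) on the 8, where 38% did. The family's median on all 12 arrays was -0.37, against 0.32 for all genes and -0.17 for the bright ones.

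**Figure D1:**
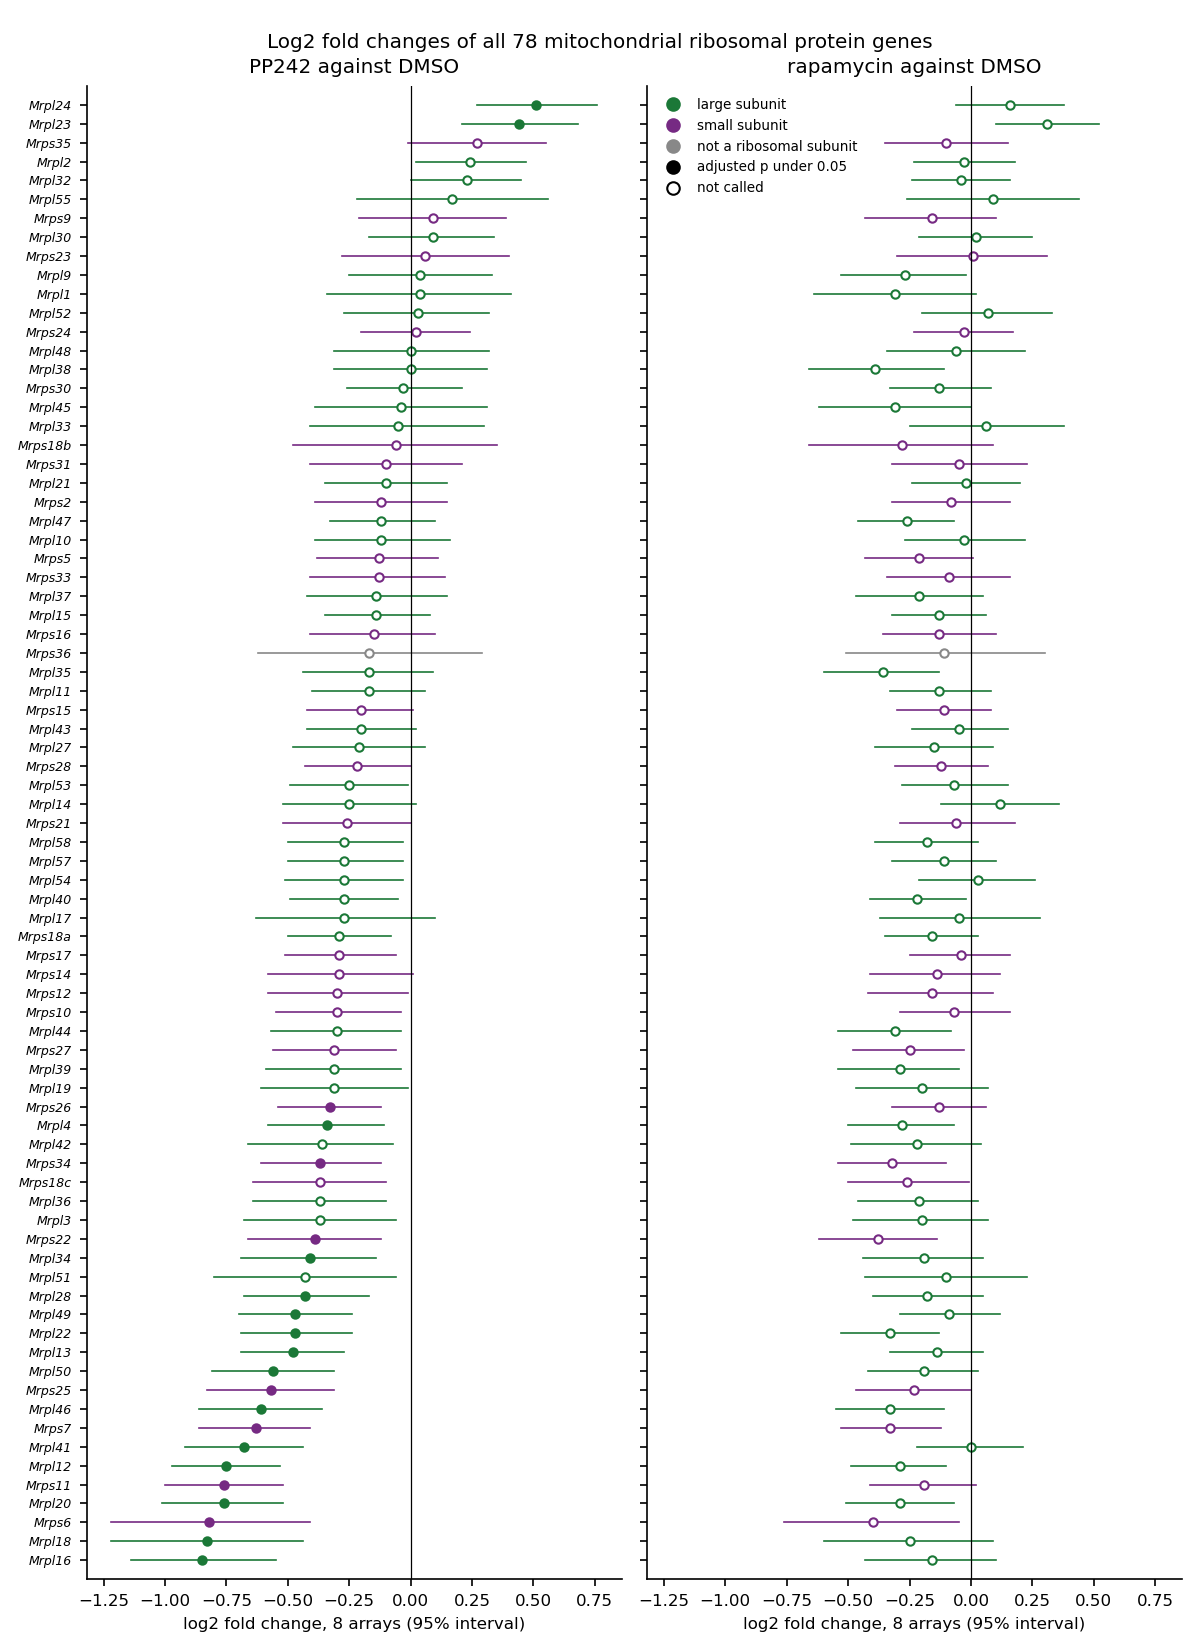
Log2 fold change of each of the 78 genes (rows, ordered by the PP242 value) with its 95% interval from the fit on 8 arrays, PP242 against DMSO on the left and rapamycin against DMSO on the right. Filled points were called, green marks the large and purple the small subunit. The 20 genes called as lower fill most of the lower end on the left, Mrpl24 and Mrpl23 stand at the top, and no point is filled on the right.

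Among large-subunit proteins with bacterial counterparts, Mrpl12, the protein of the ribosome's stalk, had the lowest adjusted p. Its level was 5.46, 5.30 and 5.35 on DMSO 1, 3 and 4, 5.05, 5.14 and 5.05 on rapamycin 1, 2 and 4, and 4.62 and 4.63 on PP242 2 and 3. The raised arrays read 5.17 for DMSO 2, 2.94 for rapamycin 3, and 4.26 and 4.15 for PP242 1 and 4. All 4 PP242 arrays were thus below all 4 DMSO arrays. Each raised array also read below the unraised arrays of its group, and more PP242 than DMSO arrays were raised. The 8 arrays fell into 3 groups without overlap. Mrpl12 was lower with PP242 by 0.75 ± 0.09 (limma, adjusted p = 0.00254).

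Mrpl20, a large-subunit protein homologous to bacterial L20, read 5.44, 5.46 and 5.26 with DMSO, 5.14, 5.10 and 5.04 with rapamycin and 4.68 and 4.57 with PP242 on the same 8 arrays. On the raised arrays it read 5.23, 2.87, 4.31 and 3.84 (DMSO 2, rapamycin 3, PP242 1 and 4). Here too the 3 groups did not overlap on the 8 arrays, and its difference was -0.76 ± 0.10 (limma, adjusted p = 0.0035). Mrpl16, homologous to bacterial L16, read 3.45, 3.47 and 3.28 with DMSO, 3.18, 3.12 and 3.40 with rapamycin, and 2.60 and 2.50 with PP242. The raised arrays gave 3.02, 1.03, 2.41 and 2.01 in the same order. On the 8 arrays 1 rapamycin array lay inside the DMSO range and the other two below it, PP242 stood apart from both groups, and its -0.85 ± 0.12 (adjusted p = 0.00444) was the family's largest fall.

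Mrpl41 and Mrpl46 are large-subunit proteins that bacteria lack. Mrpl41 stood at 4.49, 4.32 and 4.42 with DMSO, at 4.44, 4.34 and 4.44 with rapamycin, and at 3.80 and 3.67 with PP242, and the raised arrays gave 4.11, 1.97, 3.37 and 3.18. Rapamycin and DMSO overlapped throughout on the 8 arrays, with a difference of 0.00 ± 0.09, and PP242 was lower than DMSO by 0.68 ± 0.10 (limma, adjusted p = 0.00469). Mrpl46 read 1.80, 1.61 and 1.54 with DMSO, 1.27, 1.35 and 1.34 with rapamycin, and 1.05 and 1.02 with PP242. On its raised arrays it read 1.63, 1.24, 0.97 and 0.99, so for this gene the 12 arrays also fell into 3 groups without overlap. PP242 differed from DMSO by -0.61 ± 0.10 (adjusted p = 0.00754).

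Mrps11 is a small-subunit protein homologous to bacterial S11, and its gene starts head to head with Mrpl46, as shown above. It stood at 2.06, 1.83 and 1.91 with DMSO, 1.76, 1.72 and 1.74 with rapamycin, and 1.22 and 1.13 with PP242, with 1.76, 1.26, 1.11 and 1.15 on the raised arrays. Its difference was -0.76 ± 0.10 (limma, adjusted p = 0.00321), beside the -0.61 of its neighbour. Mrps7, homologous to bacterial S7, which nucleates assembly of the small subunit's head, read 3.35, 3.21 and 3.35 with DMSO, 2.93, 3.05 and 2.94 with rapamycin and 2.64 and 2.69 with PP242. The raised arrays gave 3.06, 0.98, 2.31 and 2.20. Its 3 groups did not overlap on the 8 arrays, and PP242 was lower by 0.63 ± 0.09 (adjusted p = 0.00502). Mrpl13, homologous to bacterial L13, completed the 8 members with the lowest adjusted p among those that fell, at -0.48 ± 0.09 (adjusted p = 0.01).

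**Figure D2:**
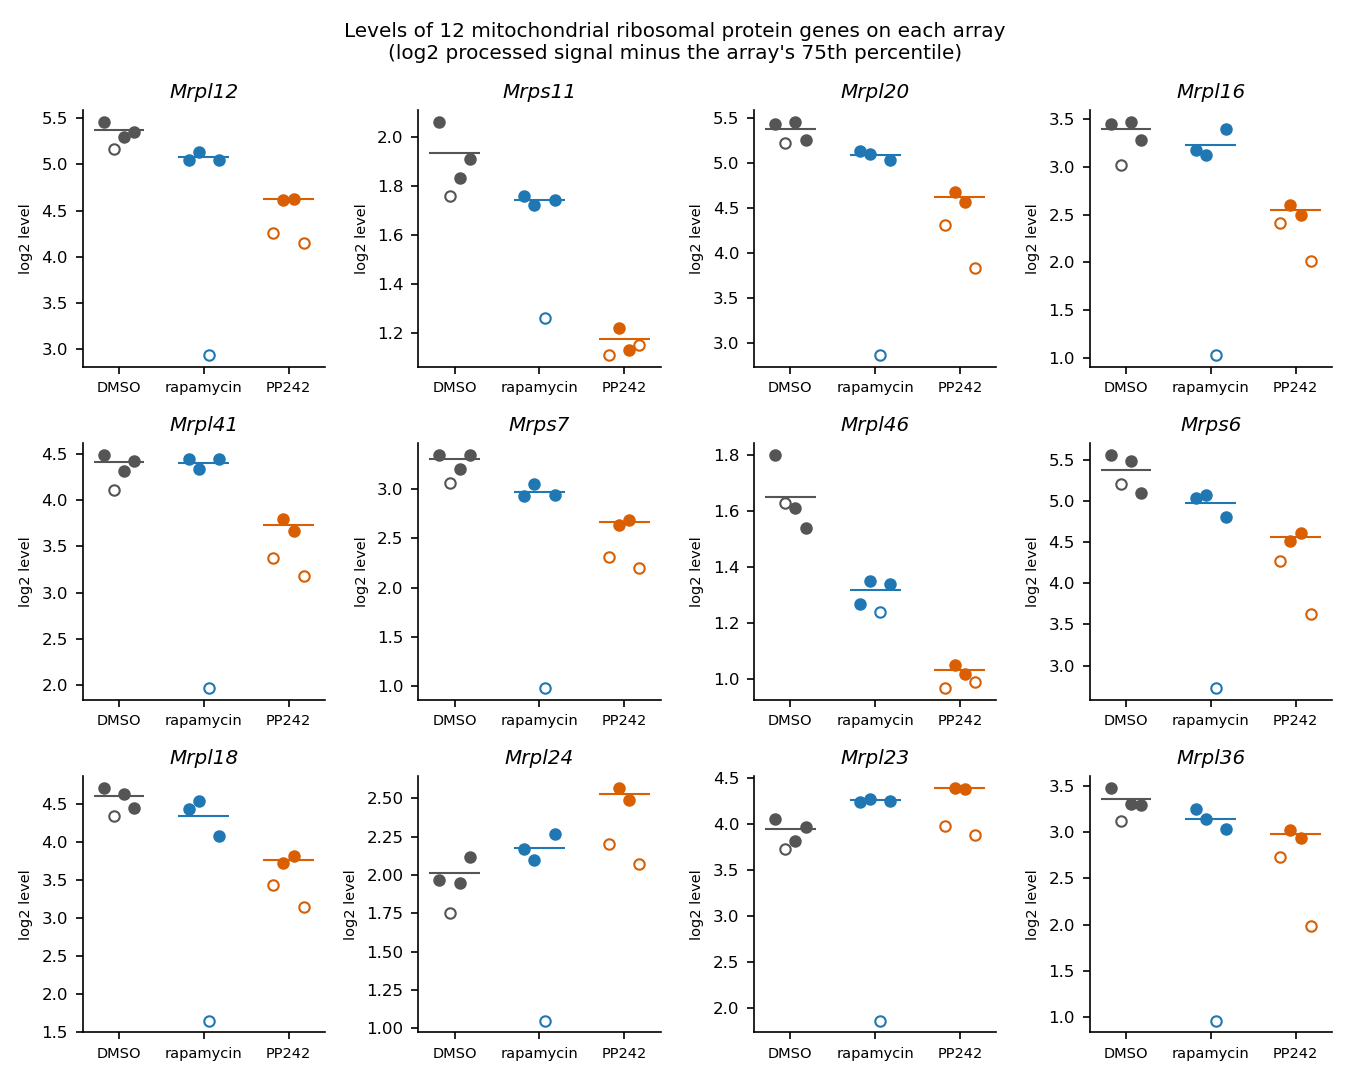
Level of 12 members (log2 processed signal minus the array's 75th percentile) on each of the 12 arrays, with a scale of its own for each gene. Filled points are the 8 arrays fitted, with their group mean as a line, and open points the 4 raised arrays. Mrpl12 reads 4.62 and 4.63 on the filled PP242 arrays and 5.30 to 5.46 on the filled DMSO arrays, and the open rapamycin point, rapamycin 3, lies far below its group in most panels.

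The other 12 genes that fell, named here to account for the family, lay between -0.33 and -0.83. Those of the large subunit were Mrpl50 (-0.56), Mrpl18 (-0.83), Mrpl22 (-0.47), Mrpl49 (-0.47), Mrpl28 (-0.43), Mrpl34 (-0.41) and Mrpl4 (-0.34). Those of the small subunit were Mrps25 (-0.57), Mrps6 (-0.82), Mrps26 (-0.33), Mrps34 (-0.37) and Mrps22 (-0.39, adjusted p = 0.0482 by limma). Just past the threshold on the other side stood Mrpl36 at -0.37 (adjusted p = 0.0526), Mrps18c at -0.37 (0.0545) and Mrps18a at -0.29 (0.0563).

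Both genes that rose are large-subunit proteins placed near the exit of the nascent chain. Mrpl24 read 1.97, 1.95 and 2.12 with DMSO, 2.17, 2.10 and 2.27 with rapamycin and 2.57 and 2.49 with PP242, and 1.75, 1.05, 2.20 and 2.07 on the raised arrays. Mrpl23 read 4.05, 3.81 and 3.96 with DMSO, 4.24, 4.27 and 4.25 with rapamycin, 4.39 and 4.38 with PP242, and 3.72, 1.86, 3.98 and 3.88 on the raised arrays. On the 8 arrays PP242 lay above DMSO without overlap for each, by 0.51 ± 0.10 and 0.44 ± 0.10 (limma, adjusted p = 0.0134 and 0.0193), and rapamycin also lay above DMSO without overlap for Mrpl23. In a fit of all arrays but rapamycin 3, 21 members were called as lower and 0 as higher (26.9%, against 19.8% of all genes called in that fit).

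The brightest members that were not called had intervals on both sides of 0. Mrpl33, homologous to bacterial L33, differed by -0.05 (95% interval -0.41 to 0.30), Mrps33 by -0.13 (-0.41 to 0.14), Mrpl52 by 0.03 (-0.27 to 0.32) and Mrpl14 by -0.25 (-0.52 to 0.02). Mrpl58, a peptidyl-tRNA hydrolase that is part of the large subunit, stood at -0.27 ± 0.10, Mrps12, the decoding-centre protein whose bacterial counterpart carries streptomycin resistance mutations, at -0.30 ± 0.12, and Mrps30 at -0.03 ± 0.10. None of these passed limma's threshold (adjusted p = 0.0912, 0.117 and 0.873).

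By role, the falls were spread over the ribosome. In the large subunit 13 of 51 were lower and 2 higher (median -0.27), and in the small subunit 7 of 26 were lower and 0 higher (median -0.27, with 13 at an unadjusted p under 0.05 by limma, which 38% of all genes passed). Of 47 proteins with bacterial counterparts 12 were lower and 2 higher (median -0.25), and of 30 specific to mitochondria 8 were lower and 0 higher (median -0.27). Over all genes tested on these 8 arrays limma called 13.3% as lower and 12.9% as higher. On all 12 arrays, where 0.449% of all genes were called, none of these groups had a call. Their medians there were -0.37, -0.39, -0.38 and -0.37 in this order. No difference between these groups was tested. The 80 cytosolic ribosomal protein genes, measured the same way on the 8 arrays, had a median of -0.02 with 2 called, both lower. On all 12 arrays their median was -0.12 with 0 called.

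Where a second probe of a gene was on the array, it mostly moved the same way. Of 35 other probes above background, for 27 members, 30 had the sign of the brightest probe, and of the 10 belonging to called members 9 did. Mrpl18 was lower at all 3 of its probes (-0.83, -0.75 and -0.87) and Mrps6 at both (-0.82 and -0.82). The exception among called members was Mrps25, whose dimmer probe, at levels near -2, differed by 0.10 where the brighter one differed by -0.57.

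The arrays came from 3 slides, each scanned once. On slide 1, which held PP242 2, DMSO 1 and DMSO 4, the family's median was -0.24 (all genes 0.01). The 20 genes called as lower were all below 0 there, Mrpl12 stood at -0.78, Mrpl24 at 0.52 and Mrpl23 at 0.38. These arrays also served to call the genes, so the signs of called genes there are no separate check. No other slide held both groups among the 8 arrays. With slide as a block the median was -0.25 and all 22 kept their sign. Limma then called 4 members (5.13%), Mrpl12, Mrpl16, Mrps11 and Mrps7, against 7.24% of all genes. Only 2 PP242 arrays stood behind the comparison, so a fit without either rests on a lone array, and fewer members were called in it. Over the 8 fits that left out an array the family's median ran from -0.28 to -0.21. Mrpl12 ran from -0.78 to -0.70 in them. Scaling the 8 arrays by quantiles gave a median of -0.16 with 14 members lower and 4 higher (23.1% called, against 25.5% of all genes). Background correction with normexp and the authors' deposited values each gave -0.15 with 15 lower and 4 higher. That is 24.4% called, against 25% and 23% of all genes.

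**Figure D3:**
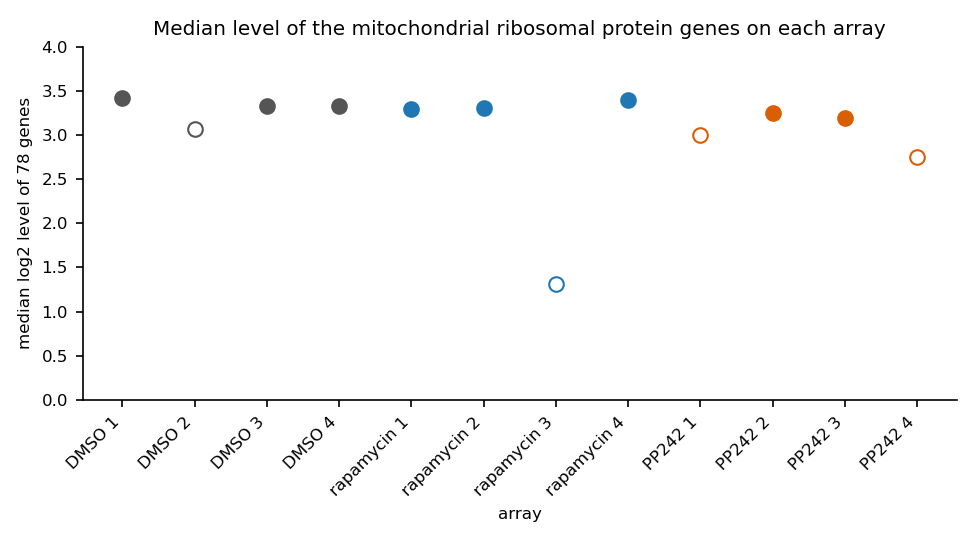
Median level of the 78 genes (log2 processed signal minus the array's 75th percentile) on each array, filled for the 8 arrays fitted and open for the 4 raised ones. The filled points run from 3.19 to 3.42, with both PP242 arrays lowest, and rapamycin 3 reads 1.31.

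With rapamycin none of the 78 genes was called by limma on 8 arrays, where 0.0561% of all genes were. At an unadjusted p under 0.05 there were 19 (24.4%), against 13.2% of all genes. Most members nevertheless read slightly lower: 69 of 78 were below 0 (52.5% of all genes were), the median was -0.15 against -0.02 for all genes and -0.05 for the bright ones, and the range was -0.40 to 0.31. In 33 members (42.3%) every rapamycin array lay under every DMSO array, against 10.2% of all genes and 15.2% of the bright ones, and in 1, Mrpl23, above, against 8.47%. Mrps6 was the lowest at -0.40 ± 0.15 (adjusted p = 0.331), followed by Mrpl38 at -0.39 and Mrps22 at -0.38. Within slides the median was -0.17 on slide 1 and -0.11 on slide 3. On all 12 arrays the median was -0.60 (bright genes -0.44) with 0 called by limma (0 of all genes were) and 0 at an unadjusted p under 0.05 (2.07% of all genes), and without rapamycin 3 it was -0.09. With array quality weights on all 12 arrays, 20 members were called as lower and 1 as higher (26.9%, against 13.4% of all genes in that fit), with a median of -0.15, but the estimation of the weights stopped before it converged.

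The medians of the family on each array show how far rapamycin 3 departs. They were 3.42, 3.33 and 3.33 on DMSO 1, 3 and 4, 3.30, 3.31 and 3.40 on rapamycin 1, 2 and 4, and 3.25 and 3.19 on PP242 2 and 3. On the raised arrays they were 3.07 (DMSO 2), 1.31 (rapamycin 3), 3.00 (PP242 1) and 2.75 (PP242 4). Each raised array was thus below the unraised arrays of its group, and its part in the 12-array medians was not tested beyond the fit without rapamycin 3.

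PP242 and rapamycin were compared directly at the doses used, 2 µM and 50 nM. Limma called 6 members on 8 arrays (7.69%), all lower with PP242, and each was also lower against DMSO. Of all genes 14.1% were called, 7.34% as lower, so the members' share was near that of all genes for the lower direction only. These were Mrpl41 (-0.68 ± 0.10, adjusted p = 0.00863), Mrps11 (-0.57 ± 0.10, 0.0152), Mrpl16 (-0.69 ± 0.12, 0.0162), Mrpl12 (-0.45 ± 0.09, 0.0241), Mrpl20 (-0.47 ± 0.10, 0.0306) and Mrpl49 (-0.38 ± 0.09, 0.044). The family's median was -0.09 against 0.02 for all genes, with 22 members (28.2%) at an unadjusted p under 0.05, as were 29.1% of all genes. Median centring gave a median of -0.03 and 2 calls (2.56%, against 8.93% of all genes). The deposited table gave a median of -0.03 and 7 calls (8.97%, against 12%). On 12 arrays it was 0.22 (all genes 0.23) with 0 called by limma (0 of all genes were) and 1 at an unadjusted p under 0.05 (4.02% of all genes). With slide as a block no member was called, where 2.65% of all genes were. Without rapamycin 1 or without rapamycin 2 there were 2 (2.56%), against 7.74% and 7.8% of all genes. Fits without PP242 2 or PP242 3 rest on a lone PP242 array and called fewer. Within slides the medians were -0.05 on slide 1 and -0.13 on slide 2. Mrpl41, which had been called with these same arrays, stood at -0.65 and -0.67.

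Both drugs were set against the same DMSO arrays, so their values are given side by side only. The 20 genes lower with PP242 had a median of -0.56 with PP242 and -0.24 with rapamycin, where they ran from -0.40 to 0.00. Mrpl41, at 0.00, had the highest rapamycin value of them and Mrpl49, at -0.09, the next. Mrps22 read -0.39 with PP242 and -0.38 with rapamycin, and Mrps34 read -0.37 and -0.32, with direct differences of -0.01 (95% interval -0.28 to 0.27) and -0.05 (-0.29 to 0.20). These 2 were picked after their values were seen.

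Other genes of mitochondrial gene expression, in 6 lists by role, moved in both directions with PP242. Their counts stand beside the 12.9% higher and 13.3% lower of all genes tested, and for several lists the share called was near these. The values below are from the 8 arrays. On all 12 arrays limma called no gene of these lists, where 0.449% of all genes were called. The lists' medians there were -0.22, 0.00, 0.01, -0.20, -0.09 and -0.43, in the order in which they follow. Of 5 subunits of the mitochondrial ribosome that carry other names, Chchd1 (-0.81 ± 0.12) and Ptcd3 (-0.55 ± 0.11), both of the small subunit, fell (limma, adjusted p = 0.00554 and 0.0132), while Dap3 stood at -0.01 and Aurkaip1 at 0.09. Chchd1 was also lower with PP242 than with rapamycin (-0.64 ± 0.12, adjusted p = 0.0215). Of 15 translation factors 3 rose and 1 fell (median 0.03): Oxa1l, which inserts new proteins into the inner membrane, by 0.64 ± 0.08, the release factor Mtrf1 by 0.58 ± 0.11 and the recycling factor Mrrf by 0.59 ± 0.13, whereas the elongation factor Gfm1 fell by 0.81 ± 0.17. The elongation factor Tufm stood at -0.27 ± 0.10 and was not called.

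Of 24 genes of ribosome assembly and rRNA modification, 5 rose and 1 fell (median 0.04). The GTPases Gtpbp6 (0.83 ± 0.11) and Mtg1 (0.72 ± 0.14), the rRNA methyltransferase Mrm1 (0.84 ± 0.12) and Rmnd1 (0.75 ± 0.15) had the lowest adjusted p of those that rose by limma (0.00352 to 0.0142), and Trub2 and Dhx30 were not called, at -0.17 and 0.00. Among 22 genes for replication, transcription and RNA processing of mitochondrial DNA, 4 fell and 2 rose (median -0.06). The RNA-binding proteins Fastkd5 and Tbrg4 fell by 0.90 ± 0.09 and 0.79 ± 0.10, the RNA-degrading enzyme Pnpt1 by 0.51 ± 0.10, and the transcription elongation factor Tefm rose by 0.43 ± 0.09. Hsd17b10 and Ssbp1 were not called, at -0.04 and -0.22.

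Of 19 genes that charge mitochondrial tRNAs, 5 fell and 3 rose (median -0.05). Gatc and Qrsl1, subunits of the amidotransferase that makes glutaminyl-tRNA, fell by 0.63 ± 0.08 and 0.63 ± 0.09, the methionyl-tRNA synthetase Mars2 fell by 0.57 ± 0.09, and the valyl-tRNA synthetase Vars2 rose by 0.55 ± 0.10. Among 14 regulators of mitochondrial biogenesis and proteostasis 3 fell and 0 rose (median -0.24): the transcriptional coregulator Hcfc1 by 1.55 ± 0.22, the transcription factor Nrf1 by 1.07 ± 0.18 and the PGC-1-related coactivator Pprc1 by 0.53 ± 0.14 (limma, adjusted p = 0.00407, 0.00791 and 0.0369). Atf5 and the protease Lonp1 stood at -0.23 and -0.32 and were not called. With rapamycin no gene of these 6 lists was called by limma on 8 arrays, and at an unadjusted p under 0.05, which 13.2% of all genes passed, there were 1 of 5, 2 of 15, 1 of 24, 6 of 22, 5 of 19 and 4 of 14 in the order given above.

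**Figure D4:**
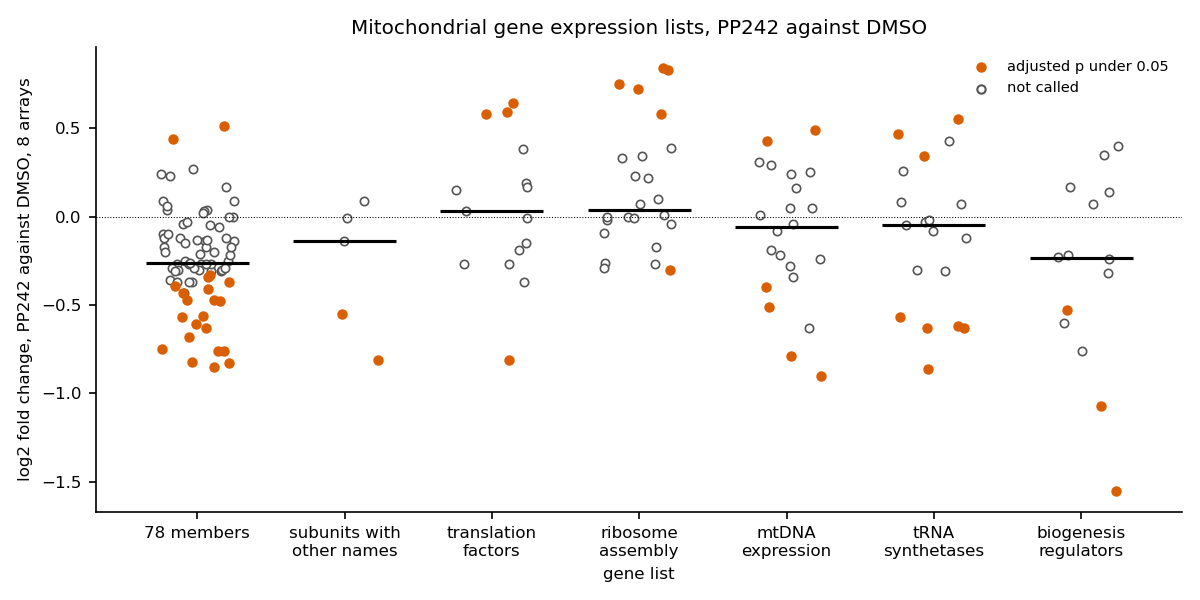
Log2 fold change of each gene (points, filled where called) with PP242 against DMSO on 8 arrays, for the 78 members and the 6 lists of other genes of mitochondrial gene expression, with a line at each median. The members' median is -0.26, and those of the lists run from -0.24 for the biogenesis regulators to 0.04 for ribosome assembly.

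Among the members, 24 have a gene on the other strand whose start lies within 500 bases upstream of their own or overlaps it. For 6 called members such a partner was measured, and their partners moved in different ways with PP242. Mrpl46 and Mrps11, which are each other's partner, both fell. Mrpl18 (-0.83) starts 238 bases from Tcp1, a chaperonin subunit that fell by 0.29 ± 0.08 (limma, adjusted p = 0.0443), and Mrps7 (-0.63) starts 224 bases from Gga3, a clathrin adaptor that rose by 0.34 ± 0.10 (adjusted p = 0.0431). The partners of Mrpl49 and Mrpl50, the ribosomal protein gene Fau at -0.16 and Zfp189 at 0.28, were not called (adjusted p = 0.58 and 0.118).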

How the data were processed

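RNA of 12 NIH3T3 cultures was measured on 1-colour Agilent arrays. The authors deposited scanner files, whose intensity column used here is the processed signal that Agilent Feature Extraction (10.5.1.1 per the file headers, 10.1 per the submitters' processing notes) corrected for background, and a table of log2 values, used as an alternative only. The probes' RefSeq accessions were matched to current mouse symbols (24844 of 41174 probes named). Control spots and outlier spots (1.34% of values) were left out, spots of a probe averaged, log2 taken and each array's 75th percentile subtracted. The brightest probe per gene by its mean over the 8 arrays was used, and genes well above background on at least 2 of 8 (4 of 12) arrays were tested, 19618 and 23631.

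One limma 3.58.1 fit (R 4.3.3) over the 3 groups gave two-sided tests with Benjamini-Hochberg adjustment over all genes. The 8 arrays were those whose 75th percentile of signal was over 100 times the 25th. The members, lists and this choice were made with earlier results of these data known. Named per comparison were the 8 called members of each direction with the lowest adjusted p, the largest rise and fall, the 4 brightest not called, 7 members whatever their result (Mrpl12, Mrpl58, Mrps12, Mrps18a, Mrps30, Mrpl36 and Mrpl41), and up to 4 called and 2 bright uncalled genes of each list; any others were named after their values were seen. Alternatives covered arrays, normalisation, background, filter, probes, blocks and each array left out. Whether replicate numbers pair the arrays is not settled, and the main fit treated them as unpaired. Deviations of same-numbered arrays correlated at 0.45, 0.11, 0.62 and -0.25. Those of differently numbered arrays of different groups correlated at -0.47 to 0.39. The 2 PP242 arrays have deviations that mirror each other, so values with PP242 say little on pairing. The fit was tested on simulated data. The number of arrays limits the precision.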

Additional observations from a re-analysis of the deposited data

Results flagged for a closer look

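One array stood apart within its group for the genes followed. Of 36 sets of 4 arrays examined (12 values in 3 groups), 11 had an array that exceeded Dixon's 95% critical value. The measure was its gap to the nearest other as a share of the range. Chance gives about 1 in 20 for a single set, but these sets share arrays and genes and are not separate trials. In all 11 it was rapamycin 3, the array with the most strongly raised dim probes. Its median of the 78 genes was 1.31 where the other rapamycin arrays read 3.30 to 3.40, and its median of the 20 genes lower with PP242 was 1.48 against 3.65 to 3.72. The genes were Mrpl12 (2.94), Mrps11 (1.26), Mrpl20 (2.87), Mrpl16 (1.03), Mrpl41 (1.97), Mrps7 (0.98), Mrpl13 (2.62), Mrpl50 (0.34) and Mrps25 (-0.65). The array was not among the 8 fitted, so it enters only the fits on 12 arrays.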

How the results depend on the processing

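All 22 genes called with PP242 against DMSO kept their sign in each of the 25 alternatives, 17 of other settings and 8 that left out an array. Each alternative reused arrays that gave the calls. Of 1425 single-gene values, 277 were no longer called, 11 were newly called, and 74 that were called in neither fit changed sign. Many of the 1425 belong to genes not called in the main fit, which had no call to lose. The 277 are therefore a larger share of the values that could lose a call. On 12 arrays 0 members were called in the 3 comparisons, with medians of -0.37 (PP242), -0.60 (rapamycin) and, turned, 0.22 (PP242 against rapamycin). Quantile scaling of the 12, chosen after seeing the data, gave 0 calls and -0.15, -0.24 and, turned, 0.05, and leaving out rapamycin 3, also chosen then, gave 21, 0 and 7 calls and -0.37, -0.09 and -0.28. The calls without rapamycin 3 were 26.9%, 0% and 8.97% of members, against 19.8%, 0.0348% and 8.23% of all genes. Array quality weights, whose estimation stopped before it converged, ran from 0.0178 to 13.6 and gave 50, 21 and 31 calls (5, 1 and 9 higher). With these weights 64.1%, 26.9% and 39.7% of members were called, against 44%, 13.4% and 38.2% of all genes.

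On 8 arrays the PP242 median was -0.16 with quantile scaling and -0.15 with normexp or the deposited table. The rapamycin median was -0.25 with median centring and -0.09 with normexp or the deposited table. PP242 against rapamycin gave medians of -0.03 with median centring or the deposited table. Its calls were 2 with median centring (2.56%, against 8.93% of all genes). They were 3 without a filter on dim probes (3.85% against 5.05%) and 12 with an intensity trend (15.4% against 16.4%). Slide as a block left 4 and 0 calls for PP242 against DMSO and against rapamycin, where 7.24% and 2.65% of all genes were called. The replicate block gave 9 (11.5%) and 0 on 8 arrays, against 20.4% and 5.03% of all genes, with no call for rapamycin. On 12 arrays it gave 0, with medians of -0.37, -0.61 and, turned, 0.22. Whether its numbers pair the samples is not settled. Leaving out 1 DMSO or rapamycin array gave 15 to 26 calls for PP242 against DMSO, where 18.9% to 32.3% of all genes were called. It gave 0 for rapamycin, and 2 to 8 for PP242 against rapamycin (7.74% to 18.2% of all genes). Leaving out a PP242 array gave fewer in both PP242 comparisons. Over all fits that left out 1 array the medians were -0.28 to -0.21, -0.17 to -0.13 and -0.12 to -0.08. The fits without a PP242 array rest on a lone one, assumed to vary like the other groups. Apart from what was left out, the causes of these shifts were not tested. Signal limits little here, since 77 members were well above background on all 8 arrays.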
